A study of Mus musculus with 19 samples.

Results

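The regions described here are 737 YAP peaks that appeared in mouse liver after 7 days of YAP induction at places where TEAD was already found in livers without the YAP transgene. They were chosen by 3 deposited peak lists: each overlapped by at least 1 bp a TEAD peak of wild-type (WT) livers and overlapped no YAP peak of WT livers. They made up 737 of the 1478 YAP peaks at 7 days (49.9%, 95% Wilson interval 47.3% to 52.4%) and are called constitutive YAP/TEAD sites below. Because presence in these 3 lists fixed their membership, that presence is not a finding, and the WT TEAD and 7 d YAP values are given as descriptions.

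Binding of YAP and TEAD to DNA was measured by ChIP-seq, in which fragments bound to a protein are pulled down with an antibody and sequenced, in 19 liver samples that form 6 groups. All mice carried ROSA26-rtTA-IRES-EGFP on a C57BL/6 background. According to the study's methods, the cross also brought in an albumin-driven Cre. WT livers lacked the tetYAP transgene and came from mice on doxycycline food for 7 days, whereas tetYAP mice received this food for 3 days (3 d) or 7 days (7 d). According to the study, the transgene encodes a constitutively active YAP, mutated at an inhibitory phosphorylation site. Induced YAP below is thus this mutant protein. There were 4 samples for TEAD at 7 d and 3 in every other group. The labels give no age of the mice. The TEAD antibody was raised against TEAD4 and, according to the study, also recognises TEAD1 and TEAD3. Livers for the TEAD assay were fixed with formaldehyde only, while those for YAP were first treated with DSG, a crosslinker between proteins. A WT liver is thus a separate animal, and "bound before induction" means bound by TEAD in livers that could not induce YAP. Whole liver was used, so a peak can come from any liver cell, although the study describes the induction as one in hepatocytes.

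The replicates of each group were merged before peaks were called, so each group is 1 list without a spread between replicates, and no test between conditions was possible. The merged libraries held 34260362 to 55032002 tags. All intervals are 95% intervals that cover counting error over peaks only, and peaks of 1 list are not biological replicates.

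YAP is a coactivator without a DNA-binding domain of its own. It is held in the cytoplasm when the Hippo kinases phosphorylate it, and in the nucleus it reaches DNA mainly through TEAD proteins, whose TEA domain reads a short core sequence. In the liver, YAP and TEAD control growth, the fate choice between hepatocyte and bile duct cell, and feedback regulators of the Hippo pathway itself.

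To show what YAP met at these sites, windows reaching 50 bp to each side of the YAP summit are printed for the 3 strongest constitutive sites, for the Hippo regulator Wwc2, for Tln1, which encodes the focal adhesion protein talin, and for a strong site without the TEAD core. All are from the forward strand of mm9. Capitals mark the TEAD core, GGAATG or its reverse complement CATTCC.
Gm20388 intron, chr8:124758156-124758256: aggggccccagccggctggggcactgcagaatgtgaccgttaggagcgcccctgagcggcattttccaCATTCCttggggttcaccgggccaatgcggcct
Tspan4 intron, chr7:148662486-148662586: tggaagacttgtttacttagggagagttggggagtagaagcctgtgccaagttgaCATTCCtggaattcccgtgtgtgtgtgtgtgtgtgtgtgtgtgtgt
Aldh1l1 intron, chr6:90458339-90458439: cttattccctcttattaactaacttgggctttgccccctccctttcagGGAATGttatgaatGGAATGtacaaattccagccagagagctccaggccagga
Wwc2 promoter, chr8:49076037-49076137: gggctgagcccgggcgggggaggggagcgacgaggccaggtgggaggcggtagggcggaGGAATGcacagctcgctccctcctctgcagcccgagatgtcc
Tln1 promoter, chr4:43571341-43571441: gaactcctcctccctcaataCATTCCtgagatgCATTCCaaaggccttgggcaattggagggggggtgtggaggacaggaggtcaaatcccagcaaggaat
Ninj2 intron, chr6:120095668-120095768: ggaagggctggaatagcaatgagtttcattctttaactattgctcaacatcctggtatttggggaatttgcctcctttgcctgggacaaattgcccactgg

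A second set shows sites at which 2 copies of the core stood on the same strand with 3 bp between them. They are shown because this arrangement was more frequent under constitutive sites than at WT TEAD peaks without YAP, as described further on. They were singled out after the values were seen.
Bahcc1 intron, chr11:120114203-120114253: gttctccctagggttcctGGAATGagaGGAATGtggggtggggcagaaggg
Ssbp3 upstream, chr4:106532239-106532289: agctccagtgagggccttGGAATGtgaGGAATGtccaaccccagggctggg
Pim3 downstream, chr15:88698154-88698204: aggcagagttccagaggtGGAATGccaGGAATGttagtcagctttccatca
Itga1 intron, chr13:115880923-115880973: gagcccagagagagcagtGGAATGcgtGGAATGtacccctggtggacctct
Ctgf promoter, chr10:24315190-24315240: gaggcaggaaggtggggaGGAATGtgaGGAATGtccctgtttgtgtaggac
Pim1 upstream, chr17:29588436-29588486: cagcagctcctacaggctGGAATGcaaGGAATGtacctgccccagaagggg
Ccnd1 upstream, chr7:152129324-152129358: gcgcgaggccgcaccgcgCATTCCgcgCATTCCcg

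The first question was how strong YAP and TEAD were at these sites. Strength was read as fold enrichment, the caller's pileup of fragments at the summit over the local background, and as the rank of a peak by −log10 p-value within its list. YAP fold enrichment at 7 d ranged from 1.43 to 25.3 with a median of 6.08 (5.89 to 6.24) at the 737 sites, against 5.68 (5.68 to 5.89) at the 637 YAP peaks that overlapped no WT peak of either factor. The intervals met at 5.89. These 637 are called new YAP sites below. The remaining 104 YAP peaks of the 7 d list lay on WT YAP peaks and belonged to neither class. The constitutive sites were also slightly longer, with a median of 342 bp against 321 bp.

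The strongest constitutive site lay on chromosome 8 (124757947 to 124758540), in an intron of the gene model Gm20388, which spans 4434882 bp in this annotation. The site was at −35263 bp from the nearest protein-coding start, that of Gm22. Its YAP fold enrichment was 25.3, and its TEAD fold enrichment was 6.91 in the WT list, 39.6 in that of 3 d and 68.8 in that of 7 d. Within each list, TEAD there ranked 1194 among 5695 WT peaks, 89 among 36446 peaks of 3 d and 19 among 38984 peaks of 7 d. As the lists differ in length and calling, these ranks place the site in its own list and do not measure a change. The next site lay 237 bp downstream of a start of Tspan4, which encodes a tetraspanin membrane protein, on chromosome 7 (148662264 to 148662813). There YAP reached 24.9 and TEAD 28.9, 52.4 and 60.3 in the same order, with a TEAD rank of 11 already in WT livers. The site in an intron of Aldh1l1, which encodes a cytosolic folate enzyme, had a YAP fold enrichment of 17.9, and TEAD values of 21.8, 48.9 and 73.8. The sites next in strength were in introns of Nln (YAP 16.3), Cbx7 (14.4), Bahcc1 (14.2) and Ninj2 (12.9), in the promoter of 2700078E11Rik (13.2), and in sequence between genes near Tacc1 (14) and Rnf44 (13.5). WT TEAD at these 10 strongest sites spanned 5.88 at Ninj2 to 34 at Tacc1, so the strongest YAP peaks included both weak and strong TEAD peaks of WT livers.

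YAP varied widely among the 5 sites with the strongest TEAD peaks of WT livers, of which Tacc1 was also among the 10 strongest by YAP. The first peak of the WT TEAD list, in an intron of Ctnnd1, which encodes the junction protein p120-catenin, had a TEAD fold enrichment of 35.2 in WT livers, followed by 51.3 at 3 d and 66.6 at 7 d, and a YAP fold enrichment of 5.72, rank 798 of 1478. A site between genes nearest to Amotl2 (chromosome 9, 102681755 to 102682188) had WT TEAD of 30.5 and YAP of 8.07, and the site at the start of Trip6, which encodes a focal adhesion adaptor, 32.2 and 7.86. Only Tacc1 and Pim3 among the 5 sites with the strongest WT TEAD peaks had YAP above 10-fold, at 14 and 12. Across the 737 sites the Spearman correlation of YAP with TEAD fold enrichment was 0.288 for TEAD in WT livers, and 0.429 at 3 d and 0.550 at 7 d over the 731 sites with such a peak. These are descriptions over peaks that share their control library. The 5 sites with the strongest TEAD peaks at 7 d were Plcb1 (TEAD 61.4, YAP 12.3), Tlcd2 (71.5 and 9.58), the glutathione transferase gene Gsta3 (65.4 and 10.7), Rusc2 (74.7 and 9.17) and Mrpl22 (74.7 and 6.99) by p-value, so YAP differed among sites with like TEAD.

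TEAD at the constitutive sites was compared with TEAD at the 4921 WT TEAD peaks at no YAP peak of 7 d or WT livers, which are called TEAD-only sites. The median WT fold enrichment was 7.18 (6.78 to 7.55) under constitutive sites and 4.92 (4.87 to 4.92) at TEAD-only sites. The constitutive sites thus stood at the median percentile 82.6 (79.4 to 85.1) of the WT list. Their range was wide, from 1.57 to 35.2, with quartiles at 5.32 and 10.03, so weak TEAD peaks of WT livers were among them.

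After induction, TEAD fold enrichment was higher at the constitutive sites than in either comparison class. At 3 d, 731 of 737 sites overlapped a TEAD peak (99.2%), against 89.6% of all YAP peaks at 7 d and 98.4% of TEAD-only sites. Nearly all WT TEAD peaks were thus found again whether or not a YAP peak was called there at 7 d. The median fold enrichment was 21.4 (20.8 to 22.3). It was 10.8 (10.01 to 11.5) at the 528 new YAP sites with a TEAD peak at 3 d and 11.2 (11 to 11.3) at TEAD-only sites. The 3 d TEAD values of new YAP sites and TEAD-only sites thus had overlapping intervals, whereas those of the constitutive sites stood apart. The rule asked constitutive sites for both a WT TEAD peak and a 7 d YAP peak. New YAP sites lacked the former and TEAD-only sites the latter. Across constitutive sites, TEAD at 3 d correlated with WT TEAD (Spearman 0.699) and with YAP (0.429). How far the choice of sites shaped this order was not tested. At 7 d, again 731 sites overlapped a TEAD peak, against 95.2% of all YAP peaks and 95.1% of TEAD-only sites, and the medians were 33.9 (32.8 to 35.1), 26.6 (25.7 to 28.3) and 15.3 (15.1 to 15.8). The fold enrichments come from lists called separately with different fragment lengths (400 bp in WT livers, 207 bp at 3 d and 206 bp at 7 d), so levels between lists are not on a common scale, whereas classes within a list are. The run name of the WT TEAD list carries another value (d200), but its shortest peak was 400 bp long, the length its header gives, as in the other lists, whose shortest peaks equal their header values.

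Of the constitutive sites at a TEAD peak, 90.3% (87.9% to 92.2%) at 3 d and 91.1% (88.8% to 93%) at 7 d were in the top 10% of the TEAD list by fold enrichment. For TEAD-only sites these shares were 43.1% and 35.2%, and over all WT TEAD peaks found again they were 48.9% and 42.6%. New YAP sites reached 42.2% at 3 d and 77.2% at 7 d. Constitutive sites were thus among the strongest TEAD peaks of both lists, whereas most new YAP sites were so in the 7 d list and not in the 3 d list.

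**Figure D1:**
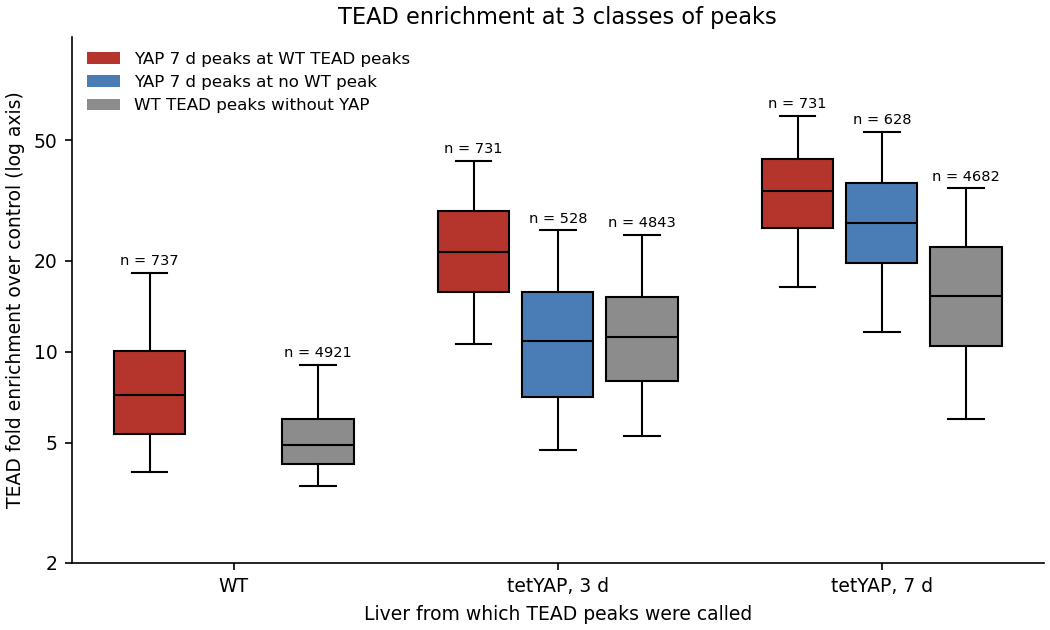
TEAD fold enrichment over control (log axis) in the lists of WT livers and of tetYAP livers at 3 d and 7 d, for constitutive sites (red), new YAP sites (blue, which have no WT TEAD peak by definition) and TEAD-only sites (grey). Lines inside the boxes are medians, boxes span the quartiles, whiskers the 5th to 95th percentiles, and n is the number of peaks. The median of the constitutive sites is above the other classes in every list, at 7.18, 21.4 and 33.9.

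The ratio of fold enrichment between lists was then compared between classes. Since the lists are not on a common scale, neither its size nor its direction measures a change at a site, and only the difference between classes, which share the scaling, is read. The ratio of fold enrichment at 7 d to WT had a median of 4.27 (4.10 to 4.41) over 724 WT TEAD peaks under constitutive sites and of 3.00 (2.96 to 3.04) over 4682 TEAD-only peaks. A ratio of at least 2 was found at 97.1% (95.6% to 98.1%) and 81.4% (80.3% to 82.5%), respectively, against 83.1% over all WT TEAD peaks, a difference of 15.7 percentage points (13.9 to 17.2). At 3 d the shares were 85.1% and 60.7%, against 63.5% over all WT TEAD peaks. Among the 729 constitutive sites with a TEAD peak in all 3 lists, 688 (94.4%) had values in the order WT below 3 d below 7 d, against 3887 of 4652 TEAD-only peaks (83.6%). The ratio was 10.3 at Bahcc1 (TEAD 6.38, 48.3 and 66 in WT, 3 d and 7 d livers), 10.3 near the growth factor receptor gene Egfr (5.72, 36.6 and 58.9), 10.04 at Rusc2 (7.44, 47 and 74.7) and 9.96 at Gm20388. The highest ratio, 16.8, was found at the promoter of Phldb1 (3.99, 30.5 and 66.9, YAP 10.04), which was named after its values were seen.

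Since constitutive sites held stronger TEAD peaks already in WT livers, classes were compared within groups of WT enrichment. The 5642 WT TEAD peaks at no WT YAP peak were sorted into 10 equal groups by WT TEAD fold enrichment. The share at a YAP peak of 7 d, 13.5% over all WT TEAD peaks, lay between 4.08% and 4.79% in the 4 lowest groups, rose to 21.8% (18.6% to 25.4%) in group 9 and to 45.7% (41.6% to 49.8%) in group 10, with WT fold enrichment from 8.60 upwards. Both lists took part in choosing the sites, so these shares are a description.

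Within each of the 10 groups, TEAD at 7 d was higher where YAP was found, with intervals apart in 10 of 10. In the lowest group, the median was 23.7 (18.7 to 29.1) at 27 peaks with YAP and 9.90 (9.48 to 10.6) without. In the highest group, it was 41.6 (40.3 to 43.2) at 258 peaks with YAP and 30.9 (29.9 to 32.9) at 307 without. TEAD at 3 d, when few YAP peaks were called, showed the same order in 10 of 10 groups, from 13.1 (10.6 to 15.6) against 7.59 (7.28 to 7.82) in the lowest to 30.2 (29.2 to 31.4) against 24.9 (24 to 25.9) in the highest. The difference between YAP-bound and TEAD-only peaks was thus also present within each group. The lowest group (1.57 to 3.85) and the highest (8.60 to 35.2, with 258 of the 721 YAP-bound peaks) were wide, so WT enrichment was matched only loosely there.

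**Figure D2:**
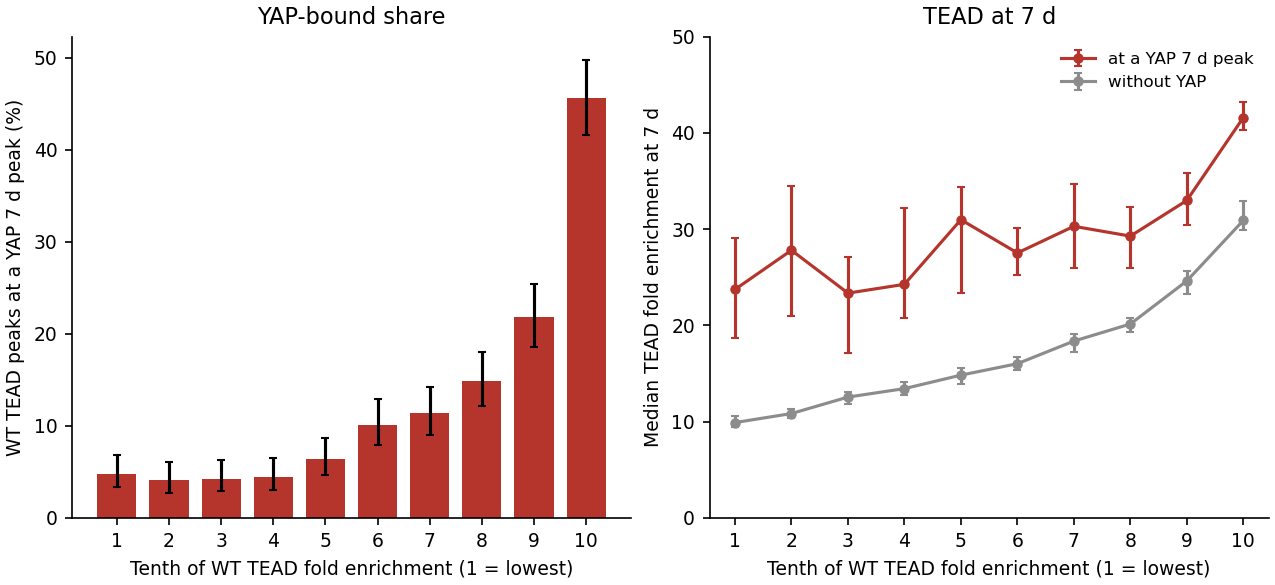
WT TEAD peaks in 10 equal groups by WT TEAD fold enrichment (1 is the lowest). Bars on the left give the percentage at a YAP peak of 7 d with Wilson intervals, which rises from 4.79% to 45.7%, and points on the right give the median TEAD fold enrichment at 7 d with its interval for peaks with YAP (red) and without (grey), red lying above grey in all 10 groups.

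YAP itself was rarely called at these sites at 3 d. A YAP peak of the 3 d list overlapped 14 of 737 constitutive sites (1.90%, 1.13% to 3.16%) and 3 of 637 new YAP sites (0.471%), against 6.16% of all YAP peaks at 7 d, among which those at WT YAP peaks are counted. Of these 14, 9 lay in places where YAP peaks of WT livers were dense or the YAP enrichment was under 2, which are described next. The 5 others were Tspan4 (YAP 13.0 at 3 d and 24.9 at 7 d), a site at the start of 1110034B05Rik (7.02 and 12), an intron of the integrin gene Itga1 near the start of Pelo (5.99 and 11.4), an intron of the survival gene Bcl2 (4.96 and 10.9) and an intron of the kinase gene Stk10 (5.16 and 5.48), the last one named after its values were seen. All 5 had TEAD of at least 31.9 at 3 d, so at these sites TEAD and YAP were both called at the early time.

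A part of the list stood apart from the rest. A run of 14 constitutive sites, with gaps of at most 30 kb, covered 70.1 kb of chromosome 1 (90110275 to 90180378) at Ugt1a1, Heatr7b1, Hjurp and Trpm8. For this reason Heatr7b1, Hjurp and Trpm8 were the genes with most constitutive sites, 11, 10 and 9. The 14 sites overlapped only 7 different WT TEAD peaks, 2 of them held the TEAD core, and 5 overlapped a YAP peak of 3 d. Their median YAP fold enrichment was 3.56 (range 2.70 to 8.38), and their median ratio of TEAD at 7 d to WT was 1.23 over 10 sites with a 7 d peak. Another 4 sites, near Gm10800 and Gm10801 on chromosome 2 and on an unplaced sequence, had YAP fold enrichments of 1.43 to 1.99 and WT TEAD of 1.57 to 1.76. These regions together held 44 of the 156 YAP peaks of WT livers and 37 of the 110 at 3 d, so a site there met the rule only where it missed one of those peaks. Without these 18 sites, all of the 719 remaining sites overlapped a TEAD peak both at 3 d and at 7 d, and 5 overlapped a YAP peak at 3 d.

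The summits of the factors lay close together. The YAP summit at 7 d was a median of 38 bp (35 to 41) from the WT TEAD summit, 32 bp (29 to 35) from that of 3 d and 33 bp (29 to 36) from that of 7 d. Of the 737 sites, 612 (83.0%) had YAP and WT TEAD summits within 100 bp and 248 (33.7%) within 25 bp. The median overlap was 334 bp, and the sites nearest to the limit of the rule were few. The smallest overlaps were 17 bp near Trim41 (YAP 7.69, TEAD 4.56, 6.17 and 31.3 by increasing induction), 150 bp near Csrnp1 (YAP 3.56; TEAD 3.45, 13.1 and 20.3) and 177 bp in Hivep2 (YAP 5.24; TEAD 4.25, 11.5 and 17.2). Just outside the rule, YAP peaks near Cpsf6 (YAP 4.45), Jak2 (9.56) and in Ptprg (4.58) missed a WT TEAD peak by 79 bp, 82 bp and 122 bp. Of the 637 new YAP sites, 21 lay within 1000 bp of a WT TEAD peak.

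Sequence was not used by the rule. In windows reaching 100 bp to each side of the YAP summit, the TEAD core was found at 480 of 735 constitutive sites on placed chromosomes (65.3%, 61.8% to 68.7%) and at 373 of 635 new YAP sites (58.7%, 54.9% to 62.5%), a difference of 6.57 percentage points (1.42 to 11.7). Around WT TEAD summits, it was found in 68.7% of windows under constitutive sites (65.2% to 72.0%) and in 45.9% at TEAD-only sites (44.5% to 47.3%), against 48.6% over all WT TEAD peaks. That difference was 22.8 percentage points (19 to 26.3). In the 10 groups of WT enrichment, the share was higher with YAP in 10, but the intervals were apart in only 2, and in the highest group it was 76.7% (71.2% to 81.5%) with YAP and 71.7% (66.4% to 76.4%) without.

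Matches were centred on the summits. The nearest core lay a median of 15.5 bp (13.5 to 17.5) from the WT TEAD summit under constitutive sites, against 21.5 bp (20.5 to 23.5) at TEAD-only sites, and 25.5 bp (22.5 to 28.5) from the YAP summit. At Aldh1l1, Cbx7 and 2700078E11Rik the nearest core was 0.5 bp from the YAP summit. YAP summits were thus less tightly placed on the core than TEAD summits of the same sites.

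**Figure D3:**
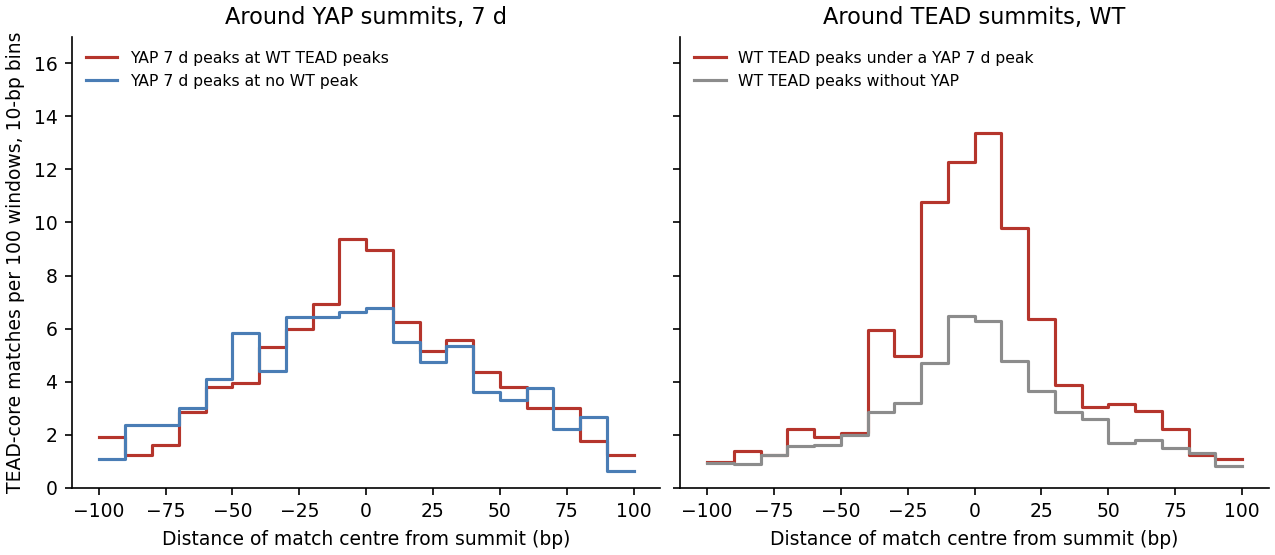
Matches to the TEAD core per 100 windows in 10-bp bins by distance of the match centre from the summit. On the left are windows around YAP summits of constitutive (red) and new (blue) YAP sites, and on the right windows around WT TEAD summits under constitutive sites (red) and at TEAD-only sites (grey). Under constitutive sites the right panel peaks at 13.4 matches per 100 windows in the bin from 0 to 10 bp, against 6.3 at TEAD-only sites.

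Several copies of the core were common. At least 2 matches were found in 124 of 735 windows at constitutive sites (16.9%, 14.3% to 19.7%), 17.3% at new YAP sites and 6.00% of windows at TEAD-only sites. The most matches, 10, were found in a repeated sequence far from genes near Cntnap5a (YAP 7.64), followed by 8 in a repeat in Pard3 (8.08) and 4 at the Tln1 promoter printed above (13.5). The median YAP fold enrichment was 5.68 (5.46 to 5.89) at 255 constitutive sites without a core, 6.11 (5.89 to 6.33) with 1, 6.35 (5.89 to 7.04) with 2 and 8.28 (7.20 to 10.5) at 16 sites with 3 or more. TEAD at 7 d followed the same order, with 30.2 (28.5 to 32.2), 34.5 (33.0 to 36.3), 39.3 (37.4 to 42.9) and 42.7 (36.1 to 60.6). The intervals with 2 and with 3 or more copies overlapped. TEAD at 3 d did not keep this order, with 19.2, 23.5, 24.4 and 21.6. WT TEAD was lower at sites without a core, 6.25 (5.98 to 6.91), than with 1, 7.71 (7.31 to 8.11). It did not separate the sites with 1, 2 and 3 or more copies, at 7.71, 7.52 and 8.16 with overlapping intervals. The YAP intervals with 1 and 2 copies overlapped as well.

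Sorted into 4 equal groups by YAP fold enrichment, constitutive sites held the TEAD core in 55.7%, 64.1%, 69% and 72.3% of windows from the weakest to the strongest group. In the same order, the AP-1 motif was found in 10.9%, 12.5%, 8.15% and 4.89%, and C/EBP in 14.2%, 21.7%, 21.7% and 21.7%. FOXA was found in 3.28%, 5.43%, 10.3% and 8.15%, the GC box in 6.01%, 8.15%, 10.9% and 7.61%, and HNF4 in 3.28%, 2.72%, 2.72% and 0.543%. For each motif other than the TEAD core, the intervals of the 4 groups overlapped. The median TEAD at 7 d of the 4 groups was 26.01, 30.4, 35.6 and 44.8.

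Cores on the same strand with 3 bp between them were found at 13 constitutive sites (1.77%, 1.04% to 3.00%) and 17 new YAP sites (2.68%, 1.68% to 4.25%), which did not differ beyond counting error (difference −0.908 percentage points, −2.64 to 0.679). Around WT TEAD summits they were found in 14 of 725 windows under constitutive sites (1.93%) and 6 of 4918 at TEAD-only sites (0.122%), a difference of 1.81 percentage points (1.02 to 3.09). The 13 sites had TEAD from 28.3 to 73.1 at 7 d, with a median of 52.8, and WT TEAD from 4.75 to 32.6 with a median of 6.38. At Ctgf, which encodes a secreted matricellular protein and is a classical YAP target, the TEAD values of WT, 3 d and 7 d livers were 10.1, 43.5 and 54.8, and YAP was 10.5. Near the kinase genes Pim3 and Pim1, YAP was 12 and 10.04, while WT TEAD was 32.6 and 5.45. Upstream of Ccnd1, which encodes cyclin D1, YAP was 5.68 and TEAD 13.6, 38.1 and 52.8. The spacing was picked from 40 distances on each kind of strand pair after the counts were seen, so it is a description.

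Other motifs were searched on both strands in the same windows, and none of them contains the TEAD core. Around WT TEAD summits, the C/EBP motif TTNNGCAA was found under 19.7% of constitutive sites and 13.2% of TEAD-only sites (difference 6.55 percentage points, 3.65 to 9.74), against 14% over all WT TEAD peaks. The AP-1 motif TGANTCA was found in 9.10% and 6.75% (2.35 points, 0.330 to 4.76), against 7.04%, and the FOXA motif TGTTTAC in 7.45% and 5.21% (2.24 points, 0.425 to 4.47), against 5.45%. The GC box GGGCGG went the other way, with 8.55% and 15.5% (−6.90 points, −9.0 to −4.44), against 14.5%, as did the ETS motif CCGGAAG with 2.34% and 3.99% (−1.64 points, −2.69 to −0.170), against 3.75%. C/EBP and FOXA proteins are liver-enriched factors, whereas GC boxes are frequent at promoters. The promoter share also differed between these classes, as given next, and its part in the motif shares was not tested. The HNF4 motif CAAAGTCCA was rare (2.34% and 1.32%, 1.02 points, 0.0766 to 2.43, against 1.46%). The intervals for the HNF1 motif GTTAATNAT (1.66% and 1.59%, against 1.58%) and the NR5A2/ERR motif CAAGGTCA (2.21% and 2.09%, against 2.11%) reached from −0.737 to 1.32 and from −0.839 to 1.51 points. Against new YAP sites, constitutive sites had fewer AP-1 matches (9.12% and 12.8%, −3.64 points, −7.03 to −0.337) and more GC boxes (8.16% and 4.09%, 4.07 points, 1.52 to 6.62) and ETS matches (1.90% and 0.630%, 1.27 points, 0.0317 to 2.60). The C/EBP motif (19.9% and 16.9%, 3.01 points, −1.12 to 7.08) did not differ from new YAP sites beyond counting error. Neither did the FOXA motif (6.80% and 6.93%, −0.126 points, −2.89 to 2.56), nor the HNF4, HNF1 and NR5A2/ERR motifs. These 18 intervals were not adjusted for their number.

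Relative to genes, constitutive sites lay between the comparison classes. A site counted as promoter if it touched the stretch that begins 2000 bp before an annotated start and ends 1000 bp after it. This held for 175 of 735 constitutive sites (23.8%, 20.9% to 27%), against 18.8% of all YAP peaks at 7 d. Gene bodies held 41.6% and intergenic sequence 34.6%. The promoter share was 10.7% (8.54% to 13.4%) at new YAP sites, a difference of 13.1 percentage points (9.15 to 17), and 35.6% (34.2% to 36.9%) at TEAD-only sites, a difference of −11.8 points (−15.0 to −8.28). Within the 10 groups of WT enrichment the promoter share was lower with YAP in 10, with intervals apart in 2. The median distance to the nearest protein-coding start was 12899 bp, against 23605 bp at new YAP sites and 7790 bp at TEAD-only sites.

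The 175 promoter sites differed from both kinds of distal site in the ratio of TEAD at 7 d to WT. In WT TEAD they stood apart from gene-body sites only, and their interval overlapped that of intergenic sites. Their median WT TEAD was 8.11 (7.44 to 9.13), against 6.74 (6.25 to 7.31) in 306 gene-body sites and 7.12 (6.52 to 7.58) in 254 intergenic sites. The ratio of TEAD at 7 d to WT was 3.50 (3.23 to 3.78) at promoters, 4.50 (4.33 to 4.75) in gene bodies and 4.42 (4.16 to 4.63) between genes. TEAD at 7 d was 33.0, 34.4 and 34.2, and YAP 6.00, 6.11 and 6.00, with overlapping intervals. GC boxes were found at 17.7% of promoter, 5.88% of gene-body and 4.33% of intergenic sites, and C/EBP motifs at 14.9%, 22.5% and 20.1%.

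**Figure D4:**
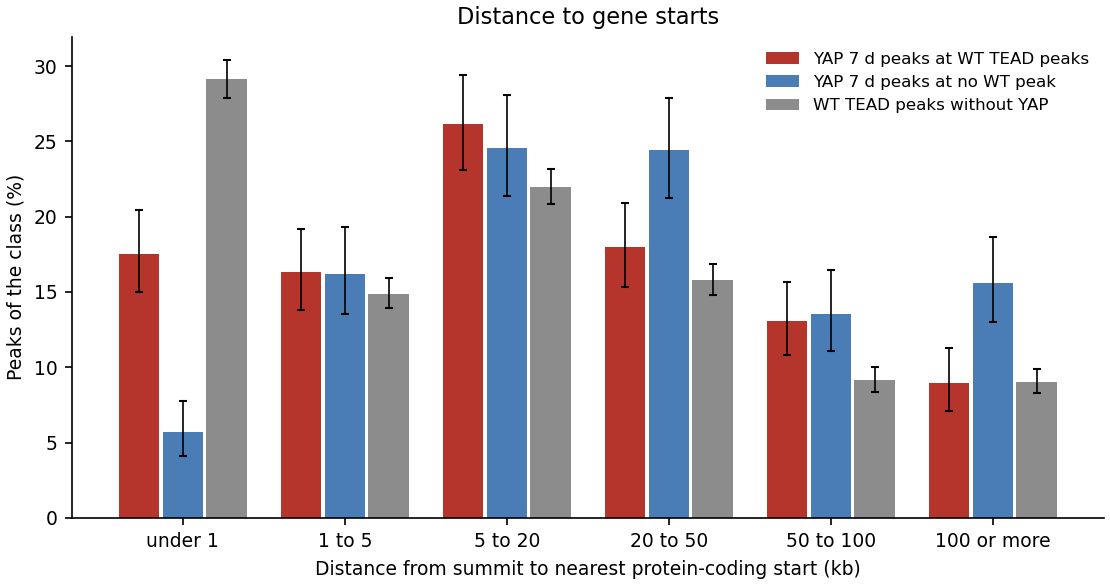
Percentage of peaks by distance of the summit from the nearest protein-coding start, for constitutive sites (red), new YAP sites (blue) and TEAD-only sites (grey), with Wilson intervals. Within 1 kb of a start lay 17.6% of constitutive, 5.67% of new YAP and 29.1% of TEAD-only sites.

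Finally, genes near constitutive sites were listed. A gene was counted if a site lay in its body or within 20 kb of one of its starts, which held for 764 of 22208 protein-coding genes (3.44%). Of these, 713 had 1 site. Longer genes had more: 2.35% of genes under 10 kb, 3.11% from 10 to 50 kb, 4.45% from 50 to 100 kb and 7.59% of longer ones. Counts for 9 gene lists are set beside these shares, without a test, and the part that gene length plays in them was not tested.

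Of 32 genes of the Hippo pathway, 7 had a constitutive site (21.9%, 11% to 38.8%). The median gene length was 76628 bp in this list and 15527 bp over all genes. They were upstream scaffolds, inhibitors and the transcriptional factors themselves. At the promoter of Wwc2, a paralogue of the scaffold gene Wwc1 (Kibra), TEAD was 21.3, 34.5 and 42.7 in the same order of livers, with YAP of 12. Wwc1 had intronic sites, the stronger one with TEAD of 13.3, 32.3 and 49.7 and YAP of 8.95. Jub (Ajuba), a LIM protein that restrains the Lats kinases, had TEAD of 15.8, 44.7 and 43.8 and YAP of 10.3 in an intron. Vgll4, which competes with YAP for TEAD, had TEAD of 9.99, 26 and 53.6 and YAP of 8.20 at an intronic site. At the promoter of Wwtr1, which encodes the YAP paralogue TAZ, TEAD was lower, 6.65, 13.6 and 15.1, with YAP of 6.11. Tead1 (TEAD 5.72, 14.6 and 23.5, YAP 5.30) and the phosphatase gene Ptpn14, whose product binds YAP (6.91, 15.9 and 35.8, YAP 5.24), completed the list. At the sites given, the TEAD value of 7 d was above that of WT livers for all 7 genes, and above that of 3 d for all but Jub. Of the 729 constitutive sites with a TEAD peak in all 3 lists, 725 had 7 d above WT and 690 had 7 d above 3 d. The order is thus not particular to these genes, and it does not measure a change because the lists are not on a common scale. A weaker constitutive site at the Jub promoter had TEAD of 14.6, 28.6 and 34.1, with 7 d above 3 d.

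Of 22 genes often used as a YAP target signature, 6 had a site (27.3%, 13.2% to 48.2%). These were Ctgf, Crim1, Amotl2, Nuak2, Ptpn14 and Asap1. At the start of Amotl2, an angiomotin that holds YAP at junctions, TEAD was 23.4, 48.6 and 59.6 and YAP 10.7, and 2 weaker constitutive sites lay nearby. An intron of Crim1, a transmembrane regulator of BMP signals, had TEAD of 15.4, 41 and 64.6 and YAP of 11.6. Near the kinase gene Nuak2, TEAD was 11.3, 32.8 and 48.1 and YAP 8.30, whereas at Asap1 TEAD was 4.07, 17.6 and 15.3 and YAP 4.37. The genes with YAP above 10-fold thus had the strongest TEAD peaks at 7 d of the list.

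Of 15 AP-1 and immediate early genes, 3 had a site: Junb, 18590 bp from its start in an intron of Rnaseh2a (TEAD 12.9, 31.1 and 50.5, YAP 10.3), Fosl2 in its own intron (8.51, 24.5 and 37.0, YAP 8.30) and Atf3 at the promoter (7.44, 19.2 and 28.5, YAP 5.89). All 3 encode bZIP factors. Of 25 genes of cytoskeleton and junctions, 5 had a site. The promoter of Tln1 had the strongest YAP of these at 13.5, with TEAD of 6.20, 19.2 and 41.9. Myh9, the heavy chain of non-muscle myosin, had TEAD of 19.4, 40.7 and 62.9 with YAP of 7.20, and Ctnnd1 and the tight junction gene Tjp1 (YAP 5.02) were also among them.

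**Figure D5:**
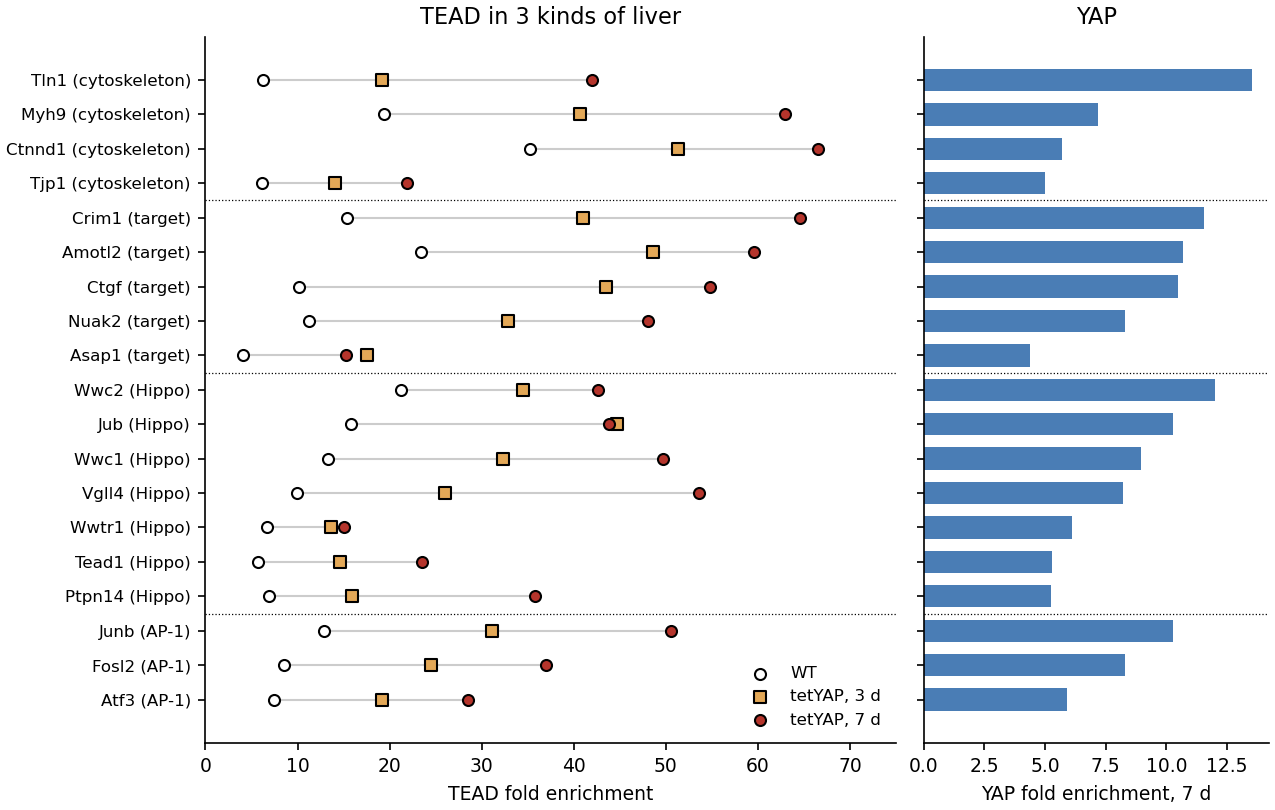
TEAD fold enrichment in WT livers (open circles), at 3 d (squares) and at 7 d (red circles), and YAP fold enrichment at 7 d (bars), at the strongest constitutive site of the plotted genes of 4 gene lists (labels in brackets; target means the YAP target signature). TEAD at 7 d is above WT at all genes shown and below 3 d at Jub and Asap1. The lists are not on a common scale, so these positions do not measure a change.

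Among 20 biliary and progenitor genes, 3 had a site. These were the keratin gene Krt18 (TEAD 5.98, 26.6 and 44.1, YAP 9.17) and the receptor genes Notch1 (8.73, 35.7 and 53.4, YAP 6.11) and Notch2 (8.73, 20.7 and 33.0, YAP 5.46). Growth factor signalling had 4 of 26, with Fgfr2 (YAP 7.20, at the promoter of Fam53b, which lies inside a long Fgfr2 gene model of this annotation), the TGF-beta feedback inhibitor gene Smad7 (6.78), the scavenging receptor gene Igf2r (6.33) and Egfr (4.58). Egfr had the lowest YAP of these 4 but TEAD of 58.9 at 7 d, near the 60.1 of Igf2r. The YAP summit near Egfr lay 196, 208 and 222 bp from the TEAD summits of WT, 3 d and 7 d livers. The medians over constitutive sites were 38, 32 and 33 bp, so TEAD and YAP were not centred together there.

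Genes of differentiated hepatocytes were covered by 3 lists. Of 26 hepatocyte transcription factor genes, 3 had a site, among them the bile acid receptor gene Nr1h4 (YAP 5.24) and Nfia (5.24). Of 31 metabolic enzyme genes, 3 did: Aldh1l1 (17.9), and the gluconeogenic genes G6pc (6.08) and Pck1 (5.02). Of 28 genes of plasma proteins and lipoproteins, 2 did: the haptoglobin gene Hp (6.24) and the albumin gene Alb (5.03). The plasma protein list had the lowest share of the 9 (7.14%, 1.98% to 22.6%), and 60.7% of its genes had a WT TEAD peak, against 22.7% of all protein-coding genes. The YAP target signature had the highest share (27.3%, 13.2% to 48.2%), with WT TEAD peaks at 50% of its genes. The intervals of these 2 lists overlapped, so their order is a description.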

How the data were processed

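YAP and TEAD ChIP-seq peaks of 19 mouse liver samples in 6 groups were taken from the lists deposited by the authors, with groups taken from the sample labels. According to the study's methods and the submitters' processing notes, the authors aligned reads to mm9 with BWA 0.6.2, merged replicates, removed duplicates and, per the file headers, used MACS 2.0.9 (p-value cutoff 1e-05) to call peaks against 1 control of 167176362 tags. Pileup, as deposited, is a coverage signal at the summit, the deposited fold enrichment is a ratio of that signal to local background, and the deposited −log10 p-value and −log10 q-value come from the same caller. Fragment lengths per the file headers were 250 bp for YAP and 400, 207 and 206 bp for TEAD in WT, 3 d and 7 d livers. A longer setting widens peaks.

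Peaks were matched by overlap of at least 1 bp, taking the strongest match by p-value. Shares have Wilson, differences Newcombe and medians binomial order-statistic intervals (scipy 1.17.1, pandas 2.3.3). Counting code was tested on simulated data. Sequence and genes came from NCBIM37 (mm9) and GENCODE vM1, read with pysam 0.24.0, and 2 sites on unplaced sequence were left out of those steps. Of 226 list genes, 225 were matched, older symbols through the RefSeq table of GRCm38.p6, from which no coordinates were used. The values of 2 list genes are not reported here. The members and lists were chosen with earlier results of these data known. Sites named were the 10 strongest by YAP, 5 by WT TEAD and 5 by 7 d TEAD p-value, 5 at YAP peaks of 3 d, the strongest site of up to 6 genes per list, those nearest to the overlap limit, the 3 genes with most sites and the 3 sites with most TEAD cores.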

Additional observations from a re-analysis of the deposited data

How the results depend on the processing

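With 1 merged list per group, leaving out single replicates was not possible. No paired analysis was possible because each list pools all samples of its group, without replicate numbers. The YAP list of 7 d came from fewer tags (34260362) than those of WT livers (54661175) and 3 d (36221830), which held fewer peaks; how depth limits weak peaks was not tested. The 16 main values were recomputed under 15 planned settings and 4 chosen after the data were seen; of 165 recomputed values, 132 stayed within the interval or 1.5 times the count reported and none changed direction. The cause of the shifts was not tested, apart from filters on enrichment, which raise medians by construction.

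Requiring summits at most 100 bp apart left 619 sites, with median TEAD of 7.58 (WT), 23.3 (3 d) and 35.9 (7 d), a summit distance of 32 bp, YAP at 3 d at 8 sites, the TEAD core in 69.8%, 17.3 points above new YAP sites, a promoter difference of 5.57 points from new YAP sites and a share of 2.82% in the lowest group of WT enrichment. The new YAP sites were redefined by the same limit here. They thus took in YAP peaks that overlapped a WT TEAD peak with summits more than 100 bp apart, and are not the class used above. YAP peaks with a −log10 p-value of at least 10 (590 sites) gave medians of 6.55 for YAP and of 23.0 and 36.3 for TEAD at 3 d and 7 d. A minimum of 5-fold YAP enrichment (585 sites) gave 6.55 for YAP, 7.58, 23.3 and 36.3 for TEAD, and 5 sites with YAP at 3 d. A minimum of 5-fold WT TEAD enrichment (601 sites) gave TEAD of 7.98, 23.8 and 36.3, 7 sites with YAP at 3 d, a difference of 13.2 points in ratios of at least 2, a difference of 14.7 points in the TEAD core from TEAD-only sites, and YAP-bound shares of 7.93% and 55.7% in the lowest and highest groups. Groups by −log10 p-value gave 2.84% in the lowest. The TEAD core was found in 51% of windows reaching 50 bp and 70.6% of those reaching 150 bp to each side, in 41.2% as GGAATGT, and, chosen after the data were seen, in 70.5% around TEAD summits of 7 d. Genes with a site numbered 1313 at 50 kb and 499 at 5 kb. Without the run on chromosome 1 and the sites with YAP under 2-fold, also chosen later, 5 sites had YAP at 3 d. Among the other values, the ETS motif difference from new YAP sites, 1.27 points, reversed to −0.0429 points in windows reaching 50 bp.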

Other observations

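Apart from the run on chromosome 1, several genes held more than 1 constitutive site; these were picked after the values were seen. At Ccnd1, 3 sites lay between −3484 and 10603 bp from the start, with YAP of 7.83, 5.85 and 5.68 and TEAD at 7 d of 22, 23.1 and 52.8. Sox5, a Sox-family transcription factor gene, had 4 sites in its count, and Shroom3, which encodes an actin regulator, had 3, with YAP of 6.39, 5.68 and 5.02. Bcl2l1, which encodes a survival protein, had 2, with YAP of 5.71 and 4.98. With the run included, 713 genes had 1 site, 32 had 2 and 14 had 3. Of these 14, Amotl2, Ccnd1, Rprd1b and Shroom3 lay outside the run, and the other 10 were Dnajb3 and 9 overlapping Ugt1a genes that share the sites of the run.

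Constitutive sites were spread over all numbered chromosomes and X. Per 10 Mb, chromosome 11 held 5.09 (62 sites) and X 0.300 (5 sites), while chromosome 1, which holds the run, had 3.45. Of all YAP peaks at 7 d, 97 lay on chromosome 11 and 21 on X.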
